A study of Mus musculus with 25 samples.

Results

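The 10 genes described here encode secreted or shed signalling proteins of the immune system: the chemokines Ccl2, Ccl3, Ccl4, Ccl12, Cxcl10 and Cx3cl1, the cytokines Il1b, Tnf and Il33, and the growth factor Tgfb1. They were picked by symbol from the 24421 genes counted in each of 25 hippocampal RNA-seq libraries. Only 4 of the 10 (Cx3cl1, Il33, Tgfb1 and Ccl12) had enough reads to pass a filter on low counts, and 6 (Ccl2, Ccl3, Ccl4, Cxcl10, Il1b and Tnf) were too low to measure reliably. Ccl12 stood higher in libraries from mice with seizures, the group through which it passed that filter. Il33 was higher at postnatal day 24 (P24) than at day 14 (P14) in both strains. Cxcl10 stood higher in the seizure libraries too, on few reads.

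Chemokines guide leukocytes and microglia by binding G protein-coupled receptors: Ccl2 and Ccl12 act on Ccr2, Cxcl10 on Cxcr3 and Cx3cl1 on Cx3cr1. Il1b and Tnf are the classical inflammatory cytokines of activated microglia, and their receptors feed into the transcription factor NF-kappaB. In the healthy brain these inducible genes are nearly silent, whereas Cx3cl1 (fractalkine) is made constantly by neurons, Il33 is stored in the nuclei of oligodendrocytes and astrocytes, and Tgfb1 is made largely by microglia and is kept latent until integrins release it.

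The series set Scn1a+/- mice, a model of the epilepsy Dravet syndrome that lacks 1 copy of the gene for the sodium channel Nav1.1, against wild-type mice on a susceptible and a resistant background. The groups were P24 F1 Scn1a+/- with seizures (3 libraries), P24 F1 Scn1a+/- without seizures (2), P24 F1 wild type (3), P24 129S6 labelled Scn1a+/- (3), P24 129S6 labelled wild type (3), P14 F1 Scn1a+/- (3), P14 F1 wild type (3), P14 129S6 Scn1a+/- (3) and P14 129S6 wild type (2). F1 stands for [129S6/SvEvTac x C57BL/6]F1 and 129S6 for 129S6/SvEvTac. Each library was a pool of hippocampi, from 3 to 4 mice in the seizure group and from 12 to 16 mice in every other group, and all groups but the first carry the label no seizures. Nothing in the labels says that the pools came from separate litters, so p-values measure the spread between pools. The fit gives each gene 1 spread shared by all 9 groups, and a separate spread for the smaller seizure pools was not fitted. How long after a seizure tissue was taken is not stated in the sources used here. In bulk tissue, fewer cells of a type and less RNA per cell cannot be told apart.

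Library totals ran from 7436442 to 25520050 counts. Scn1a, the disrupted gene, averaged 79.9 ± 10.3 CPM in the seizure libraries and 127.3 ± 2.79 CPM in F1 wild type (SD, n = 3 each; CPM, counts scaled to library size). In P24 129S6 it went against the labels, with 140.1 ± 4.95 CPM in libraries labelled Scn1a+/- and 110.1 ± 0.739 CPM in libraries labelled wild type (SD, n = 3 each). The genotype direction of those 6 libraries is therefore not relied on here, while the strain and age comparisons average both genotypes and are the same under either labelling.

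Upstream sequence is shown for the pair of inducible chemokines whose reads stood highest in the seizure libraries, because a search for 4 response elements of inflammatory signalling gave different results for them. The windows are the 250 bases before the RefSeq start, read 5′ to 3′ on the gene's strand (GRCm38.p6, the assembly of mm10). The Cxcl10 window is chr5:92348890-92349139 on the minus strand, and the Ccl12 window is chr11:82101595-82101844 on the plus strand. Capitals mark matches to an interferon-stimulated response element (ISRE, GAAANNGAAA), the NF-kappaB consensus or an AP-1 site (TGANTCA), searched on both strands.
Cxcl10: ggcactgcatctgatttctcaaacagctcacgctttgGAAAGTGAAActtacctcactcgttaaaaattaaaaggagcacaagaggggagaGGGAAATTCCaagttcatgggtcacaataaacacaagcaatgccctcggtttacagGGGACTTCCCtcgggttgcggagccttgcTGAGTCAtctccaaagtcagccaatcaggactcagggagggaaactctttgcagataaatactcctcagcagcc
Ccl12: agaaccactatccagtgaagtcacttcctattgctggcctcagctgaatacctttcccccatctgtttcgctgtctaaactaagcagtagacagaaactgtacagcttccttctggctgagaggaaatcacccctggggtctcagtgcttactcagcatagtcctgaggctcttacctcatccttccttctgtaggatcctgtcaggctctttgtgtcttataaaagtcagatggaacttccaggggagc
The Cxcl10 window held 1 ISRE match beginning 213 bases upstream of the start, 2 NF-kappaB matches at 159 and 103 bases, and 1 AP-1 match at 74 bases. The Ccl12 window held no match to these 3 motifs or to the STAT element TTCNNNGAA. Of 32851 RefSeq windows of the same length, 2.98% held the ISRE, 3.9% the NF-kappaB consensus, 6.75% the AP-1 site and 7.02% the STAT element. Of the 10 genes, 8 had an entry (Ccl2 and Ccl4 did not), and Cxcl10 was the only one of the 8 with any match. A match is a run of letters and says nothing of whether a factor bound there.

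Across all 25 libraries, Cx3cl1 was by far the most abundant transcript, from 321.9 to 596.5 CPM, and each other gene stayed below 20 CPM. Per kilobase of exon, to compare genes, mean levels were 119.2 CPM for Cx3cl1, 2.23 for Il33, 1.13 for Tgfb1 and 0.748 for Ccl12. The other 6 ran from 0.304 per kilobase for Ccl3 down to 0.0401 for Tnf. The filter asks, in as many libraries as the smallest group has, for the CPM that 10 reads give in the library of median depth. Ccl12 reached 10 reads in 5 of 25 libraries, of which 3 were the seizure libraries. Outside that group only P14 129S6 wild-type replicate 2 reached that CPM. Ccl12 thus passed only through the group in which it was high. Its call there is a description of a gene that had to stand high to be tested.

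**Figure D1:**
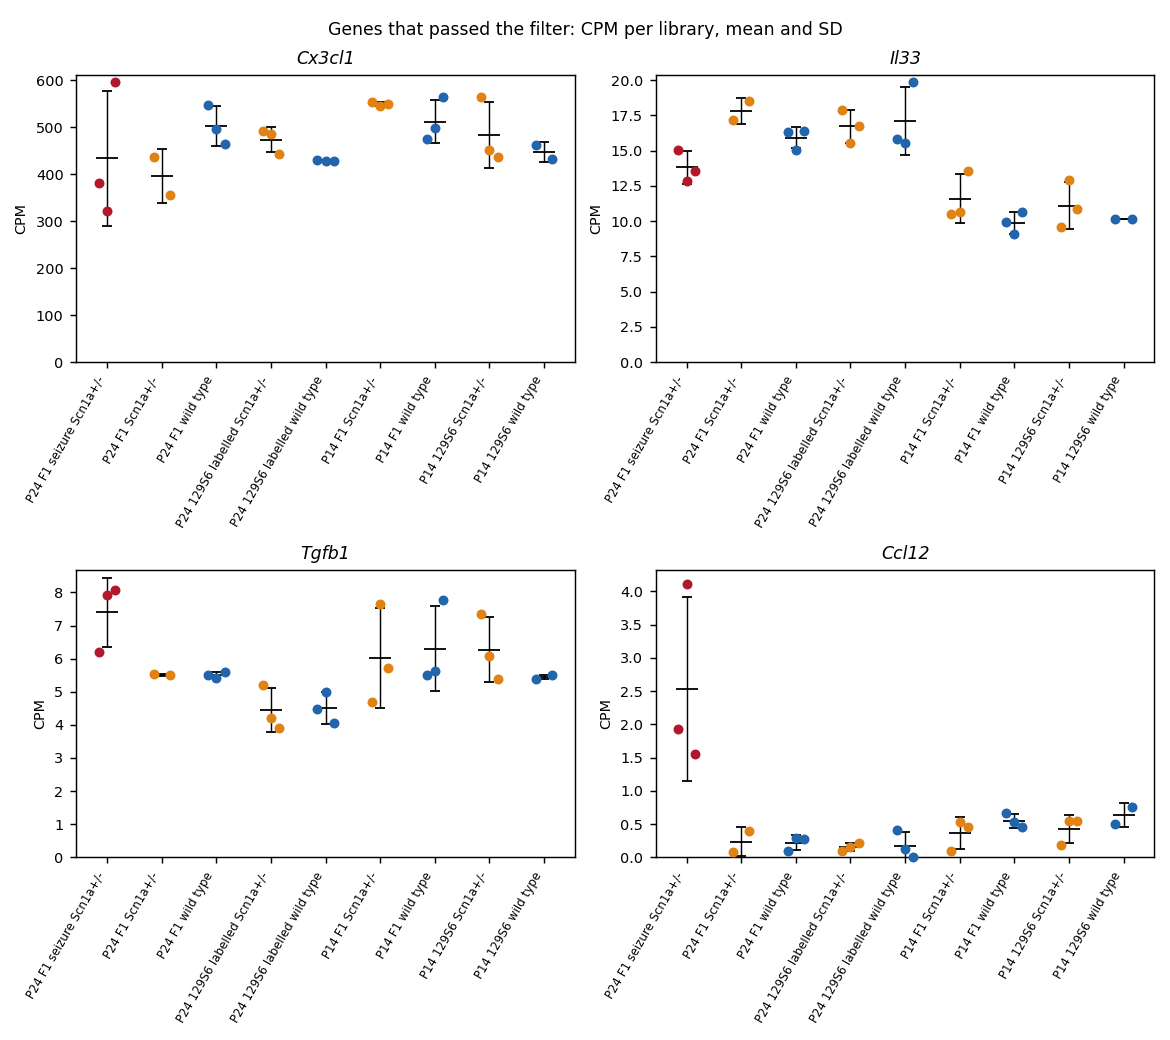
Level of the 4 genes that passed the filter, in CPM on linear axes that start at 0, with 1 point per library and the group mean and SD as bars (cut at 0). The 3 seizure libraries lie above all others for Ccl12, and for Il33 all P24 libraries except seizure replicates 2 and 3 lie above all P14 libraries.

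Ccl12, a monocyte chemoattractant of the mouse (chromosome 11, 82101845 to 82103399), had the largest log2 fold change with seizures of the 4 tested genes. It passed the filter only through the seizure libraries, so its calls with seizures are a description. It had 1.93, 4.12 and 1.56 CPM in the 3 seizure libraries, against 0.0866 and 0.389 CPM in seizure-free F1 Scn1a+/- and 0.0890, 0.295 and 0.275 CPM in F1 wild type. Every seizure library stood above all 22 others in the series, whose highest value was 0.758 CPM. In raw reads these were 43, 81 and 32 in the seizure libraries, 1 and 7 in seizure-free Scn1a+/-, and 2, 7 and 6 in wild type. The log2 fold change was 3.47 ± 0.49 against wild type (SE; edgeR quasi-likelihood test, adjusted p = 1.77e-06) and 3.21 ± 0.61 against seizure-free Scn1a+/- (adjusted p = 0.000235). Both comparisons share the seizure libraries. Without seizure replicate 2, the highest, the log2 fold changes were 2.94 against wild type (adjusted p = 3.65e-05) and 2.68 against seizure-free Scn1a+/- (adjusted p = 0.00176). Ccl12 was the 1 gene of the 4 tested called against wild type, a comparison in which 22.5% of all 15912 tested genes were called (12.4% higher, 10.1% lower).

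With age, Ccl12 fell in 129S6, at 0.166 ± 0.139 CPM at P24 (n = 6) and 0.509 ± 0.205 CPM at P14 (SD, n = 5). The log2 fold change was -1.61 ± 0.54 (SE, adjusted p = 0.0201). The libraries overlapped, with 0 to 0.408 CPM at P24 and 0.188 to 0.758 CPM at P14. In raw reads these were 1, 2, 3, 6, 3 and 0 at P24 and 2, 7, 12, 8 and 12 at P14. Ccl12 passed the filter only through the seizure libraries, which are not in this comparison, so its call here rests on few reads. Leaving out 1 library ended this call: without P14 wild-type replicate 2 it was -1.45 (adjusted p = 0.0866), without P14 Scn1a+/- replicate 3 it was -1.49 (adjusted p = 0.0622), and without P24 labelled wild-type replicate 2 it was -1.42 (adjusted p = 0.0626). In F1 the change was -0.81 ± 0.55 (adjusted p = 0.252), at 0.227 ± 0.134 CPM at P24 (n = 5) and 0.456 ± 0.195 CPM at P14 (n = 6). The difference between the strains in this age change was not called (0.80 ± 0.78, adjusted p = 0.837).

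Cxcl10, an interferon-induced attractant of T cells (chromosome 5, 92346638 to 92348889), did not pass the filter, but its reads stood apart in the seizure libraries. There were 11, 35 and 11 reads in the seizure libraries, against 1 and 3 in seizure-free Scn1a+/- and 3, 2 and 5 in wild type. No other library of the series had more than 9 reads. Summed over a group, the level was 0.907 CPM of raw totals in the seizure libraries (95% exact Poisson interval 0.687 to 1.17), 0.136 in seizure-free Scn1a+/- (0.0370 to 0.348) and 0.146 in wild type (0.0698 to 0.268). The ratio of summed rates was 6.23 against wild type (95% interval 3.15 to 13.7) and 6.67 against seizure-free Scn1a+/- (2.47 to 25.3). These intervals cover counting error only, and the reads carry no molecular identifiers.

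In a fit without the filter, over 20937 genes, Cxcl10 had log2 fold changes of 2.59 ± 0.67 against wild type (SE, adjusted p = 0.00175) and 2.72 ± 0.87 against seizure-free Scn1a+/- (adjusted p = 0.0211). That fit called 17.3% and 12.4% of genes in the 2 comparisons. Both calls rested on seizure replicate 2, which held 35 of the 57 reads. Without it the changes were 1.75 ± 0.83 (adjusted p = 0.163) and 1.88 ± 1.04 (adjusted p = 0.278). Exons of Cxcl10 overlap those of Art3 on the other strand over 5.91% of their length, and the library kit does not mark strand.

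The same seizure library had the most reads of Ccl2 and Ccl12. Ccl2, the main attractant of inflammatory monocytes, had 3, 15 and 5 reads in the seizure libraries, 0 and 2 in seizure-free Scn1a+/-, and 2, 3 and 2 in wild type. The summed rate was 3.59 times that of wild type (95% counting interval 1.49 to 9.9), and in the fit without the filter the change was 1.79 ± 0.85 (SE, adjusted p = 0.147). The 15 reads of replicate 2 made up most of the 23 reads of the group. The summed level of 14 meningeal and choroid plexus markers was 558.4, 1059 and 557.8 CPM in seizure replicates 1, 2 and 3. It was 624.0 and 551.7 CPM in seizure-free Scn1a+/- and ran from 759.4 to 882.1 CPM in wild type. In the 129S6 libraries, where Ccl2 had at most 5 reads, it ran from 909.8 to 1560 CPM. The part of that tissue in the chemokine reads was not tested.

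Ccl3 and Ccl4, chemokines made by activated microglia, gave no difference with seizures that was detectable at this depth. Ccl3 had 5, 3 and 3 reads in the seizure libraries, 9 and 3 in seizure-free Scn1a+/-, and 5, 8 and 10 in wild type. Its summed rate was 0.522 times that of wild type (95% counting interval 0.230 to 1.12). Ccl4 had 7, 3 and 3 reads in the seizure libraries, 0 and 5 in seizure-free Scn1a+/-, and 3, 8 and 4 in wild type, at a ratio of 0.947 (0.415 to 2.13). The interval of Ccl4 holds a doubling as well as no change.

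With age, the few reads of Ccl4 gave a call in F1 and none in 129S6. In F1, it had 20 reads at P24 over 5 libraries and 1 read at P14 over 6 libraries, a summed 0.204 CPM at P24 and 0.0144 CPM at P14. The ratio of summed rates was 14.2, with a 95% counting interval of 2.26 to 587.0, and the fit without the filter gave 3.61 ± 1.23 (SE, adjusted p = 0.0164), where 28.9% of genes were called. In 129S6 there were 24 reads at P24 and 8 at P14, a ratio of 2.59 (1.12 to 6.66), and 12 of the 24 came from P24 labelled wild-type replicate 2. The fit without the filter gave 1.06 ± 0.80 there (SE, adjusted p = 0.389). The difference between the strains in the age change of Ccl4 was not called in that fit (2.55 ± 1.5, adjusted p = 0.764). Ccl3 had 35 reads at P24 and 12 at P14 in F1, a ratio of 2.06 (1.05 to 4.37), with 1.10 ± 0.63 in the fit without the filter (adjusted p = 0.202). Single libraries of both genes overlapped in both strains, with 0 Ccl4 reads in seizure-free F1 Scn1a+/- replicate 1 at P24. Ccl3 and Ccl4 are neighbours whose RefSeq spans overlap on opposite strands (chromosome 11, 83647843 to 83649378 and 83648624 to 83664683). Their exons in GENCODE do not overlap, and whether reads without strand were split between them was not tested. Exons of Ccl3 overlap those of Gm53692 on the other strand over 35.6% of their length, so a share of its reads could belong to that gene.

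Il1b and Tnf, the inflammatory cytokines most studied in seizures, stayed at the edge of detection. Il1b had 10, 13 and 15 reads in the seizure libraries, 1 and 8 in seizure-free Scn1a+/-, and 4, 12 and 4 in wild type, so that 1 wild-type library overlapped the seizure range. Its summed level was 0.604 CPM in the seizure libraries (0.428 to 0.830) and 0.291 in wild type (0.178 to 0.450), a ratio of 2.08 (1.18 to 3.76). In the fit without the filter this was 1.05 ± 0.61 (SE, adjusted p = 0.281). Tnf had 8, 6 and 0 reads in the seizure libraries, 0 and 1 in seizure-free Scn1a+/-, and 2, 1 and 1 in wild type. It was at 0 in 13 of 25 libraries, where 0 reads allow up to 3 reads in a library, which is 0.141 CPM in seizure replicate 3 and up to 0.403 CPM in the shallowest library. The summed Tnf rate was 3.82 times that of wild type (1.20 to 16.0), an interval above 1 that covers counting error only and rests on seizure replicates 1 and 2, and the fit without the filter gave 1.79 ± 1.04 (SE, adjusted p = 0.275). With age in 129S6, Il1b had 10 reads at P24 and 21 at P14, a ratio of 0.411 (0.173 to 0.911), with -1.16 ± 0.69 in the fit without the filter (adjusted p = 0.238). Neither gene was called in these comparisons. Single libraries overlapped, except for Il1b between the seizure and seizure-free Scn1a+/- libraries, at a ratio of 1.98 (0.939 to 4.65).

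**Figure D2:**
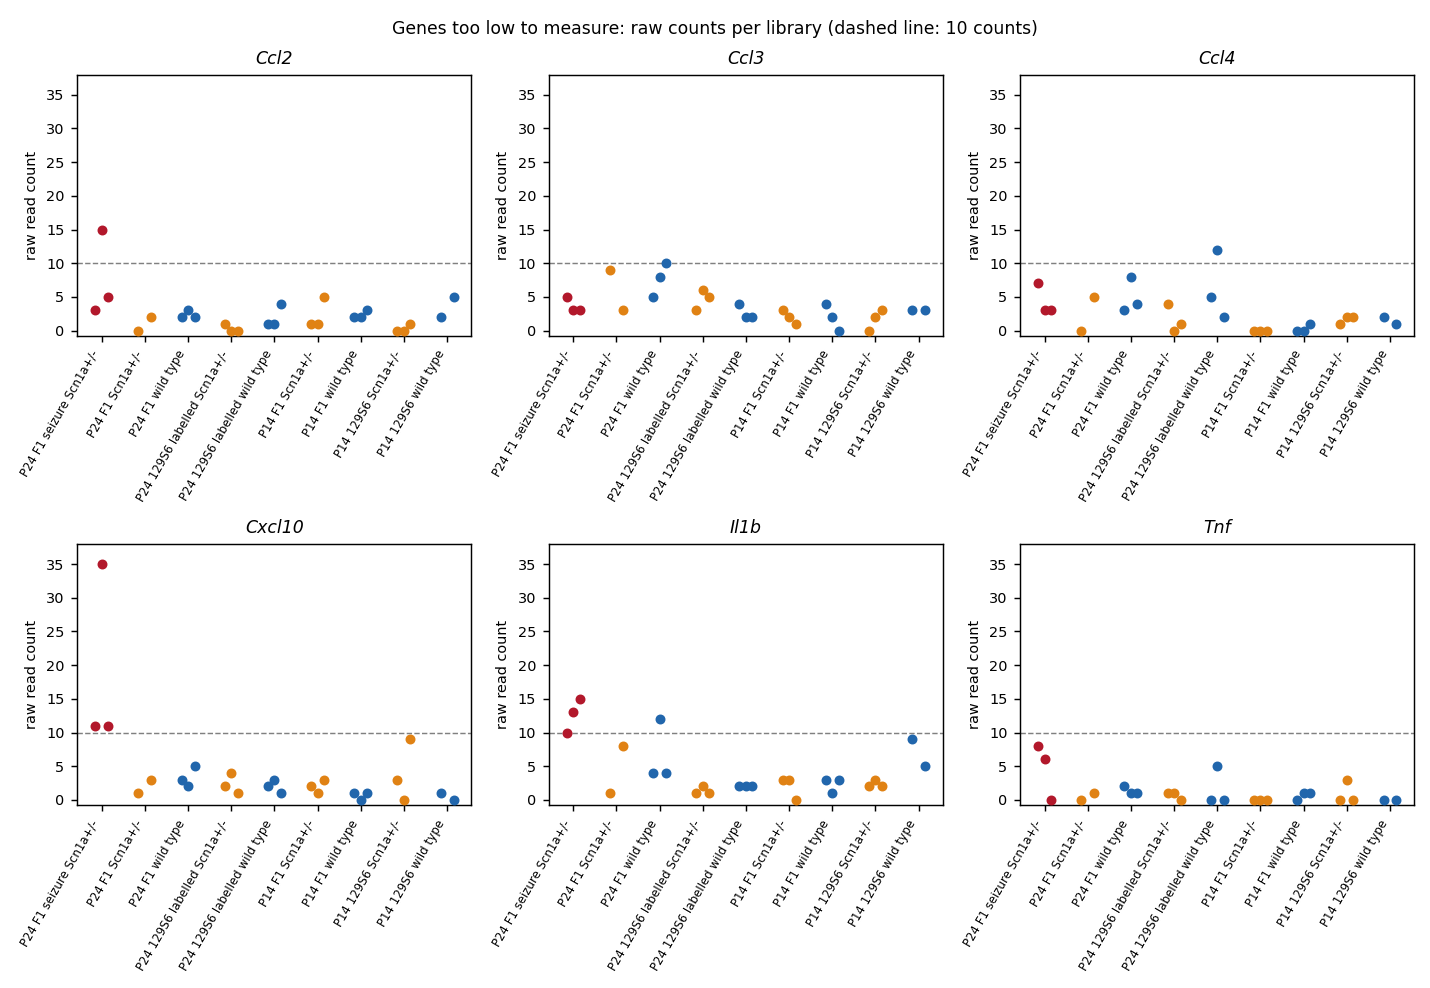
Raw read counts of the 6 genes that did not pass the filter, with 1 point per library and a dashed line at 10 reads. Of the 6, Cxcl10 is the only one in which all 3 seizure libraries, at 11, 35 and 11 reads, lie above every other library.

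Tgfb1, whose protein signals through Tgfbr1 and Tgfbr2 to SMAD factors (chromosome 7, 25687002 to 25705077), was measured on 40 to 166 reads per library. It had 6.20, 7.93 and 8.08 CPM in the seizure libraries, against 5.54 and 5.49 CPM in seizure-free Scn1a+/- and 5.52, 5.43 and 5.59 CPM in wild type. The seizure libraries did not overlap the other P24 F1 libraries, which were within 0.2 CPM of one another, but the change missed the threshold at 0.42 ± 0.16 against wild type (SE, adjusted p = 0.0566) and 0.42 ± 0.19 against seizure-free Scn1a+/- (adjusted p = 0.144). Without seizure replicate 1, the lowest, it was called against wild type (0.54 ± 0.17, adjusted p = 0.0215).

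Tgfb1 was lower at P24 than at P14 in 129S6, at 4.48 ± 0.520 CPM (n = 6) and 5.94 ± 0.829 CPM (SD, n = 5). The libraries did not overlap, with 3.92 to 5.19 CPM (median 4.35) at P24 and 5.40 to 7.33 CPM (median 5.50) at P14. The log2 fold change was -0.37 ± 0.14 (SE, adjusted p = 0.0381). Leaving out any of 8 of the 11 libraries moved the adjusted p above 0.05, to at most 0.096 (without P14 Scn1a+/- replicate 1, -0.31). In F1 the age change was -0.14 ± 0.14 (adjusted p = 0.426), and between strains at P24 Tgfb1 was 5.51 ± 0.0597 CPM in F1 (n = 5) and 4.48 ± 0.520 CPM in 129S6 (n = 6), a change of 0.29 ± 0.14 that was not called (adjusted p = 0.217).

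Cx3cl1, the neuronal ligand that holds microglia in check (chromosome 8, 94772180 to 94782427), spanned a wider range within the seizure group than the means of the 9 groups did. It had 381.6, 321.9 and 596.5 CPM in the seizure libraries, 435.9 and 355.3 CPM in seizure-free Scn1a+/-, and 547.0, 495.7 and 464.5 CPM in wild type. Seizure replicates 1 and 2 lay below every wild-type library and replicate 3 above them all and above the other 24 libraries of the series. The change was -0.21 ± 0.13 against wild type (SE, adjusted p = 0.243). Without replicate 3 it was -0.53 ± 0.09 and called (adjusted p = 7.61e-06). Against seizure-free Scn1a+/- it was 0.13 ± 0.14 with all libraries (adjusted p = 0.607) and -0.18 ± 0.09 without replicate 3 (adjusted p = 0.199), which turns its direction. The summed level of 14 neuron markers was also highest in replicate 3, at 7720, 7057 and 9408 CPM in replicates 1, 2 and 3, and its part in the Cx3cl1 values was not tested.

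In seizure-free F1 Scn1a+/- at P24, Cx3cl1 lay below wild type in both libraries, at 395.6 ± 57.0 CPM (n = 2) and 502.4 ± 41.7 CPM in wild type (SD, n = 3). The change of -0.35 ± 0.14 had an unadjusted p of 0.0219 and was not called (SE, edgeR adjusted p = 0.833). No gene at all was called in that comparison (0%), 888 had an unadjusted p under 0.05, and DESeq2 called 0 as well. When the 3 seizure libraries were left out of the fit, the spread between libraries was smaller and Cx3cl1 was called at the same size (-0.35 ± 0.08, adjusted p = 0.0170). With age in F1, Cx3cl1 was 459.7 ± 71.4 CPM at P24 (n = 5) and 530.2 ± 35.7 CPM at P14 (SD, n = 6), called at -0.25 ± 0.10 (SE, adjusted p = 0.0383). The P24 libraries ran from 355.3 to 547.0 CPM (median 464.5) and overlapped the P14 libraries at 473.7 to 563.2 CPM (median 546.6). Leaving out any of 7 of the 11 libraries ended the call, as did DESeq2 (adjusted p = 0.109), with P24 Scn1a+/- replicate 2 moving it most (-0.18, adjusted p = 0.233).

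In 129S6 the age change of Cx3cl1 was -0.05 ± 0.10 (SE, adjusted p = 0.746). The difference between the strains in the age change was not called (-0.20 ± 0.14, adjusted p = 0.732). Between strains at P14, Cx3cl1 was 530.2 ± 35.7 CPM in F1 (n = 6) and 469.3 ± 54.8 CPM in 129S6 (SD, n = 5), a change of 0.19 ± 0.10 (SE, adjusted p = 0.392) that was called when only the compared groups were fitted (adjusted p = 0.00215) or without the seizure libraries (adjusted p = 0.0145).

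Il33, a nuclear alarmin of the interleukin-1 family (chromosome 19, 29925113 to 29960718), was higher at P24 than at P14 in both strains. In F1 it was 16.7 ± 1.26 CPM at P24 (n = 5) and 10.7 ± 1.53 CPM at P14 (SD, n = 6). In 129S6 it was 16.9 ± 1.70 CPM at P24 (n = 6) and 10.7 ± 1.28 CPM at P14 (SD, n = 5). The log2 fold changes were 0.65 ± 0.09 (SE, adjusted p = 9.82e-07) and 0.66 ± 0.09 (adjusted p = 1.08e-06). All 11 P24 libraries without seizures, from 15.1 to 19.9 CPM, lay above all 11 P14 libraries, from 9.06 to 13.6 CPM. The difference between the strains was -0.0029 ± 0.131, and no gene of the 4 was called there (0.00628% of all genes were called, 1 gene). Age moved much of the transcriptome: 38.4% of tested genes were called in F1 and 34.3% in 129S6. Of the 4 genes, Il33 and Cx3cl1 were called in F1 and Il33, Tgfb1 and Ccl12 in 129S6, counts that are to be read against those shares. Outside the seizure libraries Ccl12 had at most 12 reads in a library.

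With seizures Il33 lay lower, at 15.1, 12.8 and 13.5 CPM in the seizure libraries, against 17.1 and 18.5 CPM in seizure-free Scn1a+/- and 16.3, 15.1 and 16.4 CPM in wild type. The seizure libraries did not overlap those of seizure-free Scn1a+/-, and the fall of 0.37 there was called (log2 fold change -0.37 ± 0.13, SE, adjusted p = 0.0462). Ccl12 and Il33 were thus the 2 genes called against seizure-free Scn1a+/-, where 15.7% of all tested genes were called. The Il33 call was lost without seizure replicate 2 (-0.32, adjusted p = 0.116) or 3 (-0.37, adjusted p = 0.0611), without seizure-free replicate 1 (-0.42, adjusted p = 0.0871) or 2 (-0.31, adjusted p = 0.287), when only the compared groups were fitted (adjusted p = 0.275), and in the fit without the filter (-0.37, adjusted p = 0.0576). Against wild type it was -0.20 ± 0.11 (adjusted p = 0.204).

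**Figure D3:**
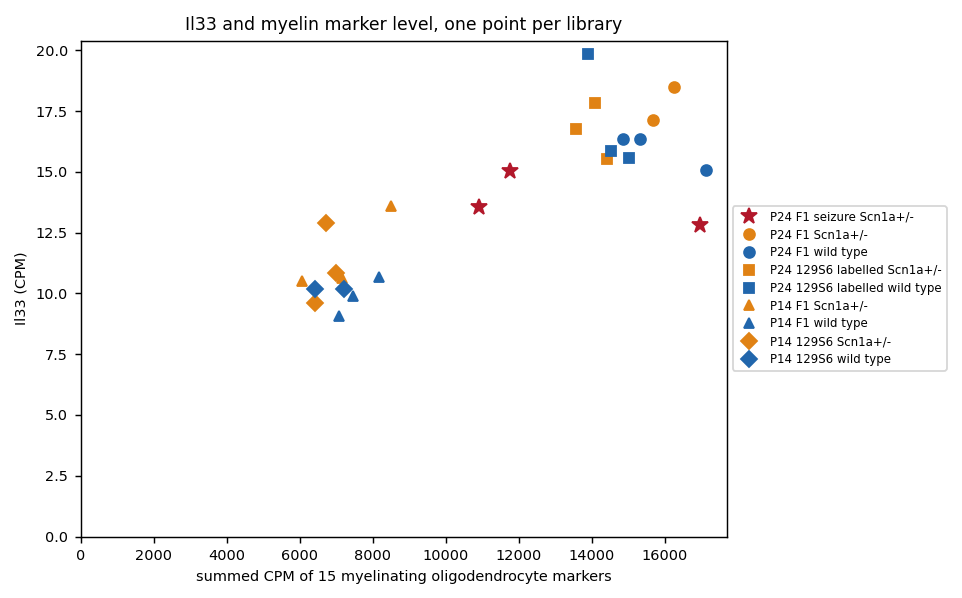
Il33 in CPM against the summed CPM of 15 myelinating oligodendrocyte markers, with 1 point per library and both axes starting at 0. The 11 P14 libraries form one cluster, at 6074 to 8500 CPM of markers, and the 11 P24 libraries without seizures lie to the upper right. Seizure replicates 1 and 3 lie between them in marker level, and replicate 2, at 16960 CPM of markers, lies to the right but at an Il33 level (12.8 CPM) within the P14 range.

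Markers of myelinating oligodendrocytes, one of the cell types that store Il33, moved with it. Their summed level was 13570 to 17150 CPM in P24 libraries without seizures and 6074 to 8500 CPM in P14 libraries, and all 14 tested markers were called higher at P24 in both strains. The genes whose profile over the 25 libraries was most like that of Il33 were Mog, a myelin protein (Pearson r = 0.92), A330050F15Rik (0.914) and Apod (0.912), among 14625 ranked genes and with shared age and depth. In the seizure libraries the markers summed to 11760, 16960 and 10920 CPM in replicates 1, 2 and 3, against 15680 and 16250 CPM in seizure-free Scn1a+/-, and 3 of 14 were called lower. Of all tested genes, 7% were called lower against seizure-free Scn1a+/- and 10.1% against wild type, and the 3 are to be read against those shares. Replicate 2, with the most myelin markers, had the least Il33. Markers of astrocytes, the other cell type named above, did not move with Il33 over age: the 13 markers summed to 8842 to 10260 CPM in P24 libraries without seizures and 10290 to 11000 CPM in P14 libraries, lower at P24 where Il33 was higher. In the seizure libraries they summed to 9722 to 10990 CPM, against 9647 to 10260 CPM in seizure-free Scn1a+/-. The part of either cell type in the Il33 values was not tested.

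**Figure D4:**
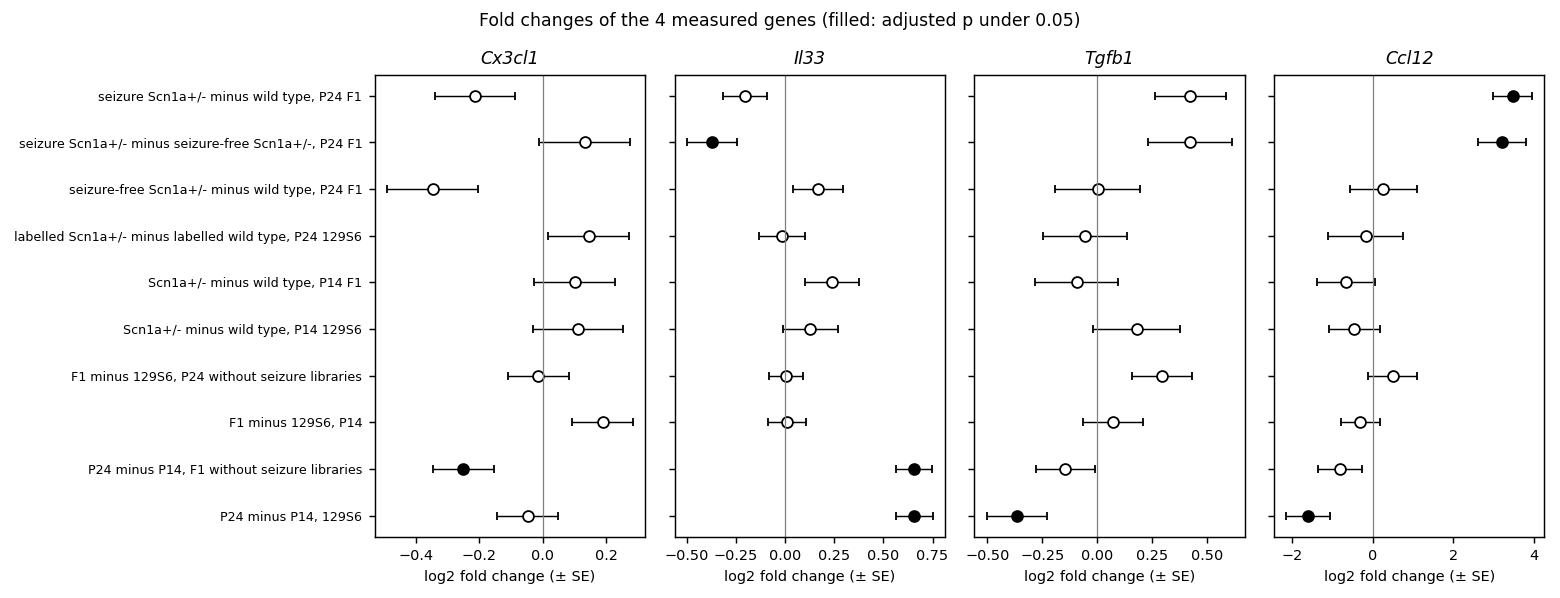
Log2 fold changes with SE of the 4 genes that passed the filter, by comparison, on a separate scale for each gene; filled points have an adjusted p under 0.05. Ccl12 is called in both seizure comparisons, at 3.47 and 3.21, and Il33 in both age comparisons, at 0.65 and 0.66. Ccl12 passed the filter only through the seizure libraries.

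Genotype without seizures moved none of the 4 genes past the threshold in either strain at either age. edgeR and DESeq2 each called 0% of genes in P24 129S6, P14 F1 and P14 129S6, where 471, 724 and 391 genes had an unadjusted p under 0.05, none of them among the 4. The smallest p of the 4 in these 3 comparisons was that of Il33 in P14 F1, at 11.6 ± 1.74 CPM in Scn1a+/- and 9.87 ± 0.802 CPM in wild type (SD, n = 3 each; 0.24 ± 0.14, adjusted p = 0.994). Strain moved none of the 4 past the threshold either, among 6.33% of genes called at P24 and 3.71% at P14.

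Receptors of these ligands were better counted than most of the ligands, and 15 of 18 passed the filter. Against wild type, 3 rose in the seizure libraries and 2 fell, with a median log2 fold change of 0.25 over the 15 and 0.00968 over all tested genes. Of all tested genes, 12.4% rose and 10.1% fell in that comparison. Tnfrsf1a, the main receptor of Tnf, was 25.2 ± 6.54 CPM in the seizure libraries and 12.4 ± 1.01 CPM in wild type (SD, n = 3 each; 1.02 ± 0.15, adjusted p = 2.93e-06). Il1r2, a decoy receptor for Il1b, was 0.955 ± 0.345 CPM in the seizure libraries and 0.0874 ± 0.0891 CPM in wild type (3.32 ± 0.62, adjusted p = 0.00014). Its wild-type level lay below the filter, so that its call, like that of Ccl12, is a description. Il1rap, which Il1r1 and the Il33 receptor both need to signal, fell by 0.34 (-0.34 ± 0.07, adjusted p = 0.000536). Tgfbr3, a co-receptor of TGF-beta, fell by 0.46 (-0.46 ± 0.11, adjusted p = 0.00264). The Ccl2 and Ccl12 receptor Ccr2 and the Cxcl10 receptor Cxcr3 did not pass the filter, and Cx3cr1 was 59.3 ± 5.07 CPM in the seizure libraries and 56.7 ± 4.18 CPM in wild type (adjusted p = 0.595).

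With age, Il1rap was higher at P24 than at P14 in both strains, by 0.56 ± 0.06 in F1 (SE, adjusted p = 1.19e-09) and 0.64 ± 0.06 in 129S6 (adjusted p = 8.04e-11). Cx3cr1, the microglial receptor of Cx3cl1, was lower, at 59.2 ± 4.73 CPM at P24 (n = 5) and 69.3 ± 3.55 CPM at P14 (SD, n = 6) in F1 (-0.21 ± 0.06, adjusted p = 0.00399) and by -0.28 ± 0.06 in 129S6 (adjusted p = 0.000384). The Il33 receptor Il1rl1 was close to the limit, at 0.288 ± 0.104 CPM at P24 and 0.396 ± 0.247 CPM at P14 in F1 (SD, adjusted p = 0.696). Over the 15 receptors, 3 rose and 6 fell in F1, where 38.4% of all tested genes were called, and 3 rose and 4 fell in 129S6, where 34.3% were. Between strains Il1r1, the signalling receptor of Il1b, was 15.5 ± 1.59 CPM in F1 (n = 5) and 9.42 ± 1.2 CPM in 129S6 (n = 6) at P24 (SD; 0.71 ± 0.11, adjusted p = 5.69e-05).

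Proteins that process or release the 10 ligands were also measured, 22 of 27 passing the filter. Against wild type 7 rose and 2 fell, with a median log2 fold change of 0.179. Of all tested genes, 12.4% rose and 10.1% fell there. Rhbdf1, which helps the protease that sheds Tnf reach the cell surface, was 48.4 ± 12.7 CPM in the seizure libraries and 23.6 ± 0.987 CPM in wild type (1.04 ± 0.12, adjusted p = 3.76e-08). Both chains of the integrin that frees latent TGF-beta, Itgav (0.52 ± 0.09, adjusted p = 6.87e-05) and Itgb8 (0.49 ± 0.09, adjusted p = 0.000146), rose. Ctss, a microglial protease that cleaves Cx3cl1, rose by 0.51 ± 0.10 (adjusted p = 0.000219). Nrros, which anchors latent TGF-beta on microglia, fell by 0.51 (-0.51 ± 0.13, adjusted p = 0.00292).

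The pathways that these ligands feed were read from fixed lists, beginning with 21 TGF-beta and SMAD genes, all of which passed the filter. Against wild type 12 rose and 0 fell in the seizure libraries (median log2 fold change 0.467), where 12.4% of all tested genes rose and 10.1% fell. Against seizure-free Scn1a+/- 9 rose and 1 fell (median 0.393), where 15.7% of all tested genes were called. Pmepa1, an inhibitor of the pathway, was 108.5 ± 32.0 CPM in the seizure libraries and 37.6 ± 0.497 CPM in wild type (SD, n = 3 each; 1.53 ± 0.12, adjusted p = 8.87e-12). Skil (0.86 ± 0.08, adjusted p = 3.53e-10) and Id3 (0.78 ± 0.09, adjusted p = 4.15e-08) rose too. The part of Tgfb1 in their change was not tested.

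The seizure counts of the lists above and below are to be read against the shares over all tested genes. Against wild type 22.5% were called (12.4% higher, 10.1% lower), and against seizure-free Scn1a+/- 15.7%. Of 30 NF-kappaB genes that passed the filter, 6 rose and 0 fell against wild type (median 0.122), and 3 rose and 0 fell against seizure-free Scn1a+/- (median 0.132). Ptgs2, the prostaglandin enzyme also induced by synaptic activity, was 81.4 ± 26.5 CPM in the seizure libraries and 23.2 ± 2.2 CPM in wild type (1.81 ± 0.16, adjusted p = 3.51e-10). Bcl3, an NF-kappaB cofactor, was 3.17 ± 1.66 CPM in the seizure libraries and 0.205 ± 0.0201 CPM in wild type (3.89 ± 0.42, adjusted p = 1.18e-08). The wild-type level of Bcl3 also lay below the filter, so that its call is a description. Of 23 interferon response genes, 3 rose (Ifitm3, Gbp2 and Gbp3) and 1 fell (Iigp1) against wild type, with a median of 0.257, so that 4 of 23 were called.

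**Figure D5:**
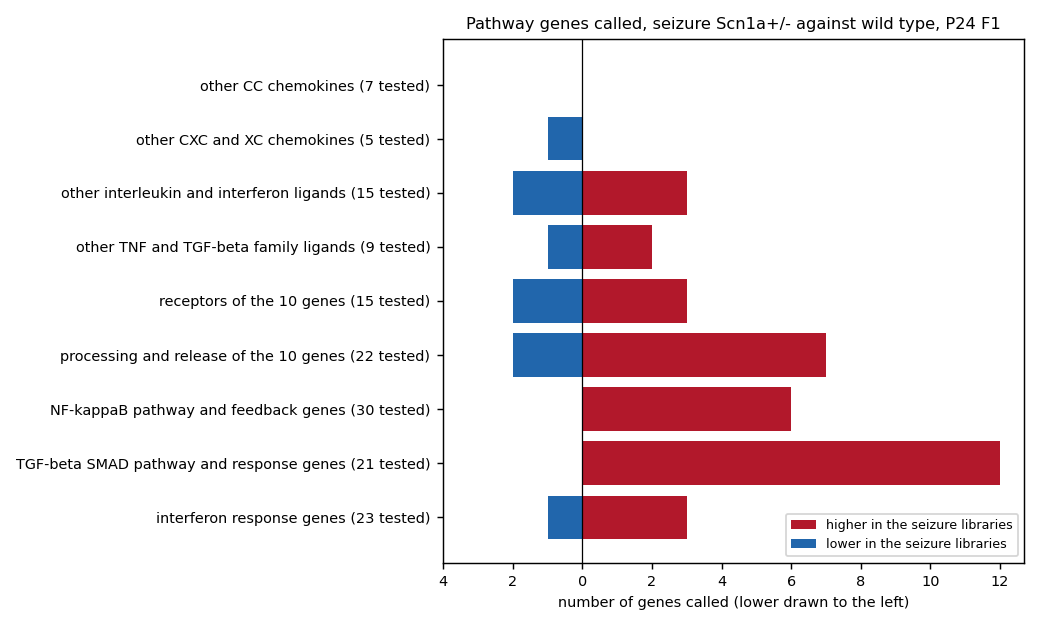
Number of genes called in the seizure libraries against F1 wild type in each list of related genes, higher to the right and lower to the left, with the number tested beside each name. The TGF-beta and SMAD list has 12 of 21 genes called higher and 0 lower. Of all tested genes, 12.4% were called higher and 10.1% lower.

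Other ligands of the same families were taken from lists as well. Of 15 other interleukin and interferon ligands tested, 3 rose and 2 fell against wild type. Lif, a cytokine of the interleukin-6 family, was 28.4 ± 27.2 CPM in the seizure libraries and 1.20 ± 0.197 CPM in wild type (SD, n = 3 each; 4.56 ± 0.45, adjusted p = 1.92e-09). Clcf1, of the same family, rose by 2.66 ± 0.30 (adjusted p = 3.4e-08), and Il1a, which shares its receptor with Il1b, by 1.35 ± 0.38 (adjusted p = 0.00933). Il34 (-0.59 ± 0.09) and Il16 (-0.68 ± 0.12) fell. Of 9 other TNF and TGF-beta family ligands, 2 rose and 1 fell: Inhba, a subunit of activin, was 28.1 ± 12.1 CPM in the seizure libraries and 2.50 ± 0.239 CPM in wild type (3.48 ± 0.23, adjusted p = 6.28e-13).

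Of 7 other CC chemokines tested, none was called against wild type, and of 5 other CXC and XC chemokines 1 fell. That was Cxcl12, a constitutive chemokine of neurons and vessels, at 46.6 ± 2.01 CPM in the seizure libraries and 82.6 ± 2.88 CPM in wild type (-0.83 ± 0.07, adjusted p = 4.86e-11). Between strains, Ccl28 was 3.67 ± 0.895 CPM in F1 (n = 5) and 0.999 ± 0.263 CPM in 129S6 (n = 6) at P24 (1.93 ± 0.20, adjusted p = 3.92e-08), and higher in F1 by 2.38 ± 0.23 at P14 (adjusted p = 1.25e-08).

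Marker genes of other cells were summed for each library. Microglia markers, all 18 tested, summed to 559.6 to 728.0 CPM in the seizure libraries, 626.2 to 672.3 CPM in seizure-free Scn1a+/- and 566.7 to 606.8 CPM in wild type. Seizure replicate 3, at 559.6 CPM, lay below all wild-type libraries. Against wild type 5 of 18 rose, C1qb (0.63 ± 0.10, adjusted p = 8.33e-06) among them, where 12.4% of all tested genes rose and 10.1% fell. Of 12 monocyte and border macrophage markers 6 were tested and none was called against wild type, at 64.5 to 93.8 CPM in the seizure libraries and 71.4 to 76.1 CPM in wild type. These summed to 57.4 to 76.1 CPM in P24 libraries without seizures and 106.3 to 120.5 CPM in P14 libraries, and so stood higher at P14. In 129S6, microglia markers also stood higher at P14, at 577.0 to 616.0 CPM, with 509.1 to 535.4 CPM at P24. So did endothelial markers there, at 319.2 to 347.3 CPM, with 281.4 to 315.4 CPM at P24. Astrocyte markers stood higher at P14 too, and myelinating oligodendrocyte markers lower, as given above. Neutrophil markers summed to 1.27 to 2.16 CPM in the seizure libraries and 0.890 to 1.77 CPM in wild type, with Elane at 0 in both. The part of any of these cells in the chemokine values was not tested.

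By the same measure of likeness as for Il33, the profile closest to that of Ccl12 was that of Podxl2 (r = 0.881), Sdc1 (0.88) and Palld (0.879). For Cx3cl1 it was that of Clstn1 (0.954), Rnf145 (0.926) and Pacs1 (0.926), and for Tgfb1 that of Gdpd5 (0.854), 6530402F18Rik (0.839) and Lynx1 (0.82). The 25 libraries behind each r share age, strain, seizure group and depth. Exons of Cx3cl1 overlap the antisense gene 1700121C10Rik over 10.8% of their length, and those of Il33 overlap Gm41832 over 2.57%, so a share of their reads could belong to those genes.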

How the data were processed

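RNA was measured in pooled mouse hippocampi by sequencing with the TruSeq RNA Library Preparation Kit v2, per the labels' protocols. Raw counts per gene were deposited for each library, with 0 lines that name no gene, beside a table in which the authors give normalized signal values of all libraries. Per the submitters' processing notes, CASAVA, TopHat2 2.1.0, HTSeq 0.6.1p1 and mm10 were used; the sources used here name no annotation or strand setting. The signal table served only as a check: 19 of its 25 columns match a count file of their own group, and the 6 P24 129S6 columns match the other genotype. Groups follow titles and characteristics.

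Deposited counts were fitted with edgeR 4.0.16 (R 4.3.3): 1 quasi-likelihood model of 25 libraries and 9 groups, TMM scaling, filterByExpr with a minimum count of 10, Benjamini-Hochberg adjustment over 15912 genes, calls at adjusted p under 0.05. The biological coefficient of variation was 7.57%, and 5.44% without the 3 seizure libraries. SE is the size of the log2 fold change divided by the root of its F statistic, and SD is over libraries. CPM use effective library sizes. Summed reads carry 95% exact intervals, and 0 reads allow up to 3. Steps were tested on simulated data. Alternatives were DESeq2 1.42.0, RLE size factors, no filter, fewer groups and each library left out. The 10 genes and the gene lists were chosen with earlier results of these data known. Named genes are the 10, Scn1a, up to 4 called genes a direction in each list by adjusted p, and the 3 most alike by Pearson r of log2 CPM (prior count 2, mean at least 0); untested receptors were named after their values were seen. Exonic lengths are from GENCODE vM39, promoters and positions from RefSeq (GRCm38.p6). Some genes of the lists are not reported here by name.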

Additional observations from a re-analysis of the deposited data

How the results depend on the processing

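No paired analysis was possible because library numbers in the titles run on from group to group, and none occurs in 2 groups. Ccl12 with seizures and Il33 with age kept their direction and their call under all alternatives run. Ccl12 had entered the filtered fits only through the seizure libraries. Counts of called genes moved with the libraries fitted. With only the compared groups they were 1596 for seizure against wild type (3579 with all groups), 629 against seizure-free Scn1a+/- (2502), 1958 and 1056 for strain at P24 and P14 (1008 and 590), 42 for the strain difference in age change (1), and 3, 2 and 2 for genotype in P24 F1, P24 129S6 and P14 F1 (0 each). Without the 3 seizure libraries they were 2103 and 989 for strain, 42 for the strain difference, and 196 and 2 for genotype in P24 F1 and P24 129S6. Without the filter they were 6 for the strain difference and 9, 3 and 4 for genotype in P24 F1, P24 129S6 and P14 129S6. DESeq2 called 2 for the strain difference.

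Of the 4 measured genes, 1 was called for strain at P14 with only the compared groups or without the seizure libraries, 1 for P24 F1 genotype without the seizure libraries, 1 for age in F1 by DESeq2, and 1 against seizure-free Scn1a+/- without the filter or with only the compared groups.

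Leaving out 1 library gave 380 to 541 genes for strain at P14 (380 without P14 129S6 wild-type replicate 2), 418 to 1423 at P24 (418 without P24 F1 Scn1a+/- replicate 2), 1 to 3 for the strain difference, 0 to 1 for P24 129S6 genotype, 1518 to 2953 against seizure-free Scn1a+/- (1518 without its replicate 2) and 0 to 2 for P24 F1 genotype. Of the 4 genes it left 1 to 3 called for age in 129S6, 1 to 2 for age in F1, 1 to 2 against seizure-free Scn1a+/- and 1 to 2 against wild type.

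Directions that turned belonged to changes that were not called. For Il33, the strain difference in age change was 0.0044 with DESeq2, 0.0075 without the filter, 0.0089 with only the compared groups or without the seizure libraries, 0.0034 with RLE factors, and -0.057 to 0.066 with 1 library left out. Other left-out ranges were, for Ccl12, -0.28 to 1.01 for strain at P24, -0.57 to 0.86 for P24 129S6 genotype and -1.27 to 0.80 for P24 F1 genotype. For Cx3cl1 they were -0.091 to 0.056 for strain at P24, -0.083 to 0.015 for age in 129S6, -0.014 to 0.18 for P14 129S6 genotype and -0.18 to 0.31 against seizure-free Scn1a+/-. For Il33 they were -0.060 to 0.063 for strain at P14, -0.028 to 0.059 at P24 and -0.085 to 0.089 for P24 129S6 genotype. For Tgfb1 they were -0.019 to 0.15 for strain at P14, -0.28 to 0.087 for P14 F1 genotype, -0.18 to 0.038 for P24 129S6 genotype and -0.010 to 0.011 for P24 F1 genotype. The fit of Cxcl10 without 1 seizure library was chosen after seeing the data. The cause of these shifts was not tested. Depth limits Ccl2, Ccl3, Ccl4, Cxcl10, Il1b and Tnf, at medians of 0 to 3 reads.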
